A study of Mus musculus with 19 samples.

Results

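The proteasome is the protease of the cytosol and nucleus that degrades proteins tagged with ubiquitin. Its 20S core is a barrel of α subunits (Psma genes) that gate the entry and β subunits (Psmb genes), some of which carry the proteolytic sites. The 19S cap holds an ATPase ring (Psmc genes) that unfolds substrates and non-ATPase subunits (Psmd genes) that bind and remove ubiquitin. Psme genes code for alternative activators of the core, Psmf1 for an inhibitor, and Psmg genes for chaperones of core assembly. Constitutive subunits are made in nearly all cells, and some core subunits have variants for immune cells, thymus or testis. Binding of the corepressor CBFA2T2 at these genes was described here from chromatin immunoprecipitation (ChIP-seq) peaks. Members were all RefSeq protein-coding genes whose symbol begins with Psma to Psmg and a digit, which gave 51 of 21887 genes. They comprised 19 genes of the 20S core, 20 of the 19S cap, 6 activators and inhibitor, and 4 assembly chaperones. The other 2, Psmc3ip and Psme3ip1, match the symbol rule without coding for a subunit. Psmc3ip acts in meiotic recombination.

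The cells were NE-4C, a line of mouse neural stem cells that lack p53. In both groups H3f3a, which codes for histone H3.3, had been knocked out and replaced by a stably expressed H3.3 with an HA tag. In H3.3WT the added histone was wild-type, in H3.3K27M it carried methionine in place of lysine 27, and neither group is labelled as a Cbfa2t2 knockout. Peak lists of the CBFA2T2 ChIP were used, 1 library per genotype, holding 6920 peaks for H3.3WT and 8272 for H3.3K27M. The series lists 19 libraries, and the CBFA2T2 ChIP of Cbfa2t2 knockout cells, which would show signal that does not depend on the protein, was not analysed here. The promoter that drives the transgenes and whether each line is a single clone are not given in the sources used here. With 1 library per genotype no difference between genotypes could be tested, and depth is unknown because the lists hold no read counts. Each peak carries a fold enrichment over background and a −log10 q. Both are the authors' values, used within a list. The lists are named as ChIP against input, and an input is listed for each genotype. Where 2 values follow a gene, the H3.3WT value stands first and the H3.3K27M value second.

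A gene was counted as marked if a peak summit lay within 1 kb of either annotated gene end. In H3.3WT 37 of 51 members were marked (72.5%), against 24.8% of all protein-coding genes. In H3.3K27M 37 were marked as well, against 28.6% of all genes. Both lists marked 35 members (68.6%), against 22.2% of all genes. Psmb4 and Psmd6 were marked in H3.3WT only, a class that held 2.6% of all genes. Psmd8 and Psme4 were marked in H3.3K27M only, as were 6.39% of all genes. The remaining 12 members had no boundary peak in either list. All genes include silent families, and RNA was not measured in the files used here, so the shares do not compare the proteasome with other active genes.

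The upstream sequences of 8 members are shown because the peaks of the marked ones sat at the start of transcription. They are the marked Psma, Psmb, Psmc, Psmd, Psme and Psmg genes of best summed rank of fold that had at least 100 bases free of other coding genes in the RefSeq promoter table. Psmb4, marked in a single list, and Psmb9, an immune subunit without a peak, were added. Sequences are from RefSeq, build GRCm38.p6, the assembly of mm10, and run 5′ to 3′ up to the base before the transcript start, at most 250 bases. Capitals mark CCGGAAG, the core recognised by ETS factors, and GCGCNTGCG, the core of nuclear respiratory factor 1 (encoded by Nrf1 and distinct from the Nfe2l1 product that is also called NRF1), on either strand.
Psma2, chr13:14613038-14613241, plus strand: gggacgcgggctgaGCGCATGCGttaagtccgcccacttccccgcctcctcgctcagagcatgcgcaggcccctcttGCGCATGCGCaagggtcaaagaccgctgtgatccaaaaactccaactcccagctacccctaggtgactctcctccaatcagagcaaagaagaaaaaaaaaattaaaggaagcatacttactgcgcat
Psmb5, chr14:54617996-54618245, minus strand: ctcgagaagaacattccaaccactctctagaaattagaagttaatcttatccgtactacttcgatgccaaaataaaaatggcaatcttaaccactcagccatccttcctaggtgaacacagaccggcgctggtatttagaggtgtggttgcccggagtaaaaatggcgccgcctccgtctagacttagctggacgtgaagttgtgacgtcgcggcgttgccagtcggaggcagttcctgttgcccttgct
Psmc5, chr11:106256085-106256184, plus strand: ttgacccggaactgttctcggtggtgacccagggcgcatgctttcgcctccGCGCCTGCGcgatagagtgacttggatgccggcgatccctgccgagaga
Psmd1, chr1:86064369-86064618, plus strand: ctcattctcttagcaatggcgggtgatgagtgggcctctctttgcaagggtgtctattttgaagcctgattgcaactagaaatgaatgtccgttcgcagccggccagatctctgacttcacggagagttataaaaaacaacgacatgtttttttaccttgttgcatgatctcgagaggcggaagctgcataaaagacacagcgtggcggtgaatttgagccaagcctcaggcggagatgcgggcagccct
Psme3, chr11:101315963-101316212, plus strand: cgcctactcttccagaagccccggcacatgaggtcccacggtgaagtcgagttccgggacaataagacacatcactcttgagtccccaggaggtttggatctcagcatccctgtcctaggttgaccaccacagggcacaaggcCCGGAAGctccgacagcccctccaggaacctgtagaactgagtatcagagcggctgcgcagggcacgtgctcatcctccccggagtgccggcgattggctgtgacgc
Psmg1, chr16:95990961-95991210, minus strand: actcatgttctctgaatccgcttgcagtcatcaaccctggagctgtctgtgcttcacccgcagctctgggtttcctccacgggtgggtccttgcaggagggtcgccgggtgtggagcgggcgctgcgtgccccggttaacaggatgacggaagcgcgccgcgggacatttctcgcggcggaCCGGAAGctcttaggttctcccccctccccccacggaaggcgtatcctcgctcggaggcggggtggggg
Psmb4, chr3:94886959-94887208, minus strand: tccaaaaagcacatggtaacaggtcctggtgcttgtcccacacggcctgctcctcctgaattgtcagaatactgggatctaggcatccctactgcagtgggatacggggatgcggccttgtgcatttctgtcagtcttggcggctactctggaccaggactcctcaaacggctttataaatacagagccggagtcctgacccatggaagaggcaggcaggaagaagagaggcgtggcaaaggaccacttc
Psmb9, chr17:34187331-34187555, minus strand: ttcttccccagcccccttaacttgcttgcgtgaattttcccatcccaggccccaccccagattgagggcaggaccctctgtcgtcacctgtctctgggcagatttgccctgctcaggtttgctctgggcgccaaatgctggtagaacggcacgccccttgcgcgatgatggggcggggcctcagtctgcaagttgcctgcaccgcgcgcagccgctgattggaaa

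In these sequences the respiratory factor letters began at −190 and, overlapping on both strands, at −127 and −126 in Psma2, counted from the transcript start. They began at −49 in Psmc5. The ETS letters began at −107 in Psme3 and at −69 in Psmg1. The Psme3 summits lay at −112 and −91, beside its letters. Those of Psmg1 lay at −44 and −178 and those of Psma2 at −78 and −23. The Psmc5 summits lay at −236 and −172, outside its 100 printed bases. Summits of Psmb5 lay at −77 and −88, and those of Psmd1 at −85 and −106, in stretches that hold neither motif. The H3.3WT summit of Psmb4 lay 82 bp downstream of its start. A match is a description of letters and not a measured site.

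Peaks at members sat at the start of transcription. The RefSeq promoter table gave a strand and start for 43 of the 51 members, and in each list 30 marked members had an entry. At all 30 the marked end was the start of transcription, in both lists. The share of all marked genes with a peak at that end was not counted, so this count has no background beside it. Summits lay within 100 bp of a gene end at 28 and at 22 of the 37 marked members (75.7% and 59.5%), against 51.98% and 48.1% of all marked genes. The median distance was 68 and 73 bp, against 94 and 107 bp for all marked genes. The largest distance was that of Psmd2, a large scaffold of the base, at 615 and 545 bp. Its annotated transcript start lies inside the gene span, 85 and 15 bp from the summits.

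**Figure D1:**
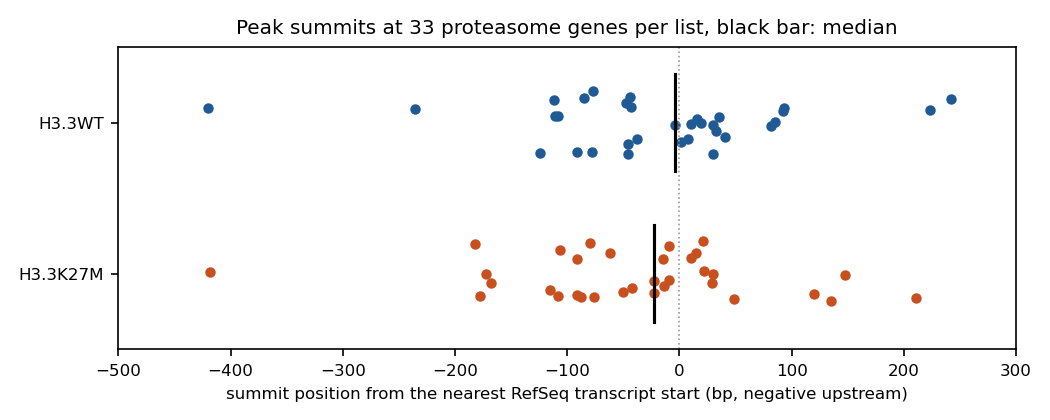
Position of the peak summit from the nearest RefSeq transcript start in bp (x axis, negative upstream) for 33 members in each list (rows); each point is a gene and the black bar is the median. Medians are −4 bp in H3.3WT and −23 bp in H3.3K27M, and 32 of 33 summits in each list lie within 250 bp of the start. Only members with a summit within 1 kb of a start are shown, and all genes were not counted in this way.

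Seen from transcript starts in place of gene ends, 3 further members had a peak. Psma6 and Psma3, both α subunits, and the inhibitor gene Psmf1 carry a start inside their annotated span. At the internal start of Psma6 (chromosome 12, 55398825) the summits lay 35 and 22 bp downstream, with 8.28 and 11.7 fold. Psmf1 had summits 10 bp downstream (7.32 fold) and 42 bp upstream (12.7 fold) of its start at 151741310 on chromosome 2. Psma3 had weaker peaks, 242 bp downstream (4.85 fold) and 135 bp downstream (4.53 fold). By this criterion 33 of the 43 members with an entry were marked in each list, against 26.7% and 30.9% of all genes with an entry. With either criterion 40 of 51 members were marked in each list and 38 in both. The share of all genes marked by either criterion was not counted, so these counts have no background beside them. The 9 members left without a peak were Psma8, Psmb8, Psmb9, Psmb10, Psmb11, Psmc1, Psme1, Psme2b and Psmg4.

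**Figure D2:**
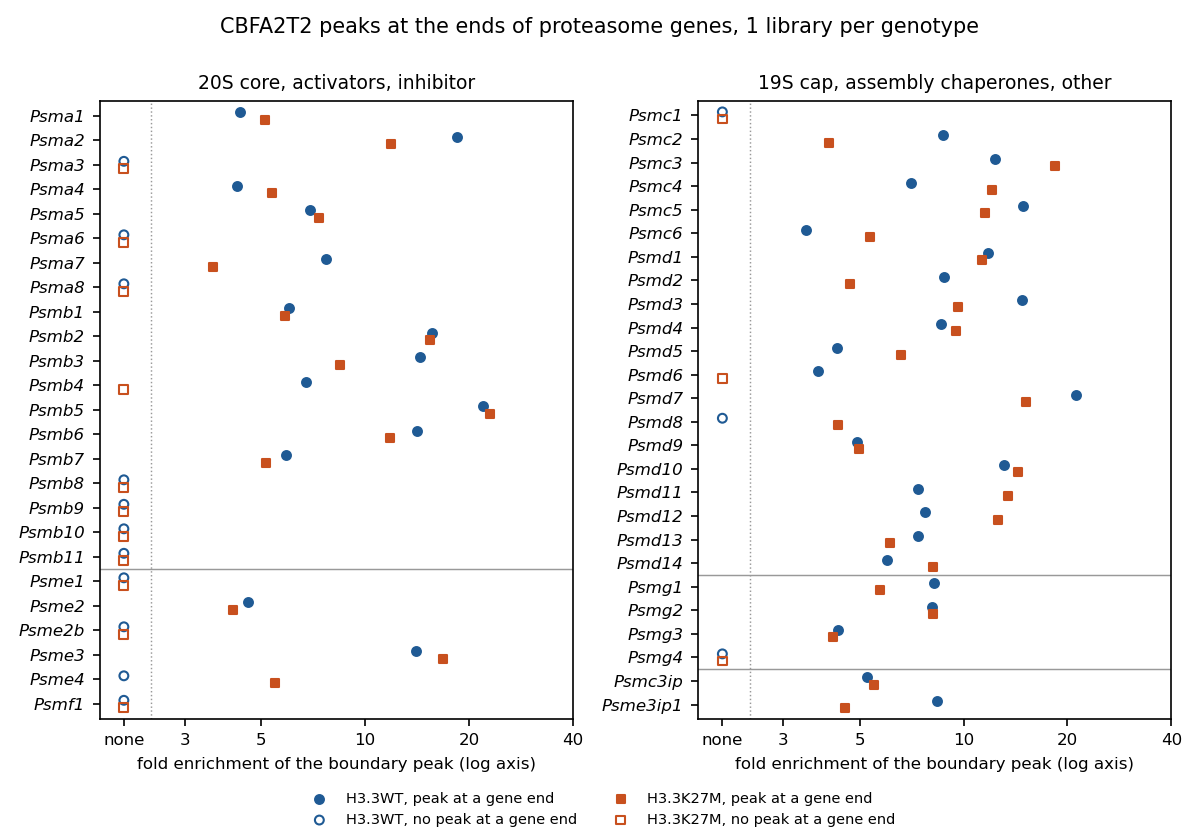
Fold enrichment of the boundary peak (x axis, log scale) for each of the 51 members (rows) in H3.3WT (circles) and H3.3K27M (squares); open symbols at the left mark members without a peak at a gene end. Psmb5 and Psmd7 reach the highest H3.3WT folds, 21.95 and 21.1, and 12 members have open symbols in both lists.

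Among the α subunits of the 20S core, 5 of the 7 made in most cells were marked in both lists, against 22.2% of all genes. By gene ends, Psma2 had the highest folds of the α subunits, 18.4 and 11.9 (chromosome 13, 14612879 to 14613559 in the first list). The internal start of Psma6, counted apart, had 8.28 and 11.7 fold, close to Psma2 in the second list. Psma5 had 6.91 and 7.37 fold. Psma7 had 7.69 and 3.63 fold, the latter the lowest of any member in the H3.3K27M list. Psma1 (4.34 and 5.13 fold) and Psma4 (4.26 and 5.37 fold) had peaks in the lower part of the H3.3WT list. By fold they stood at percentiles 16.8 (Psma1) and 15.5 (Psma4) there. In the H3.3K27M list they stood nearer the middle, at percentiles 40.7 (Psma1) and 45.4 (Psma4). Psma8, the α subunit of the testis, had none, and its nearest peak lay 314250 bp away in H3.3WT and 20815 bp away in H3.3K27M.

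The β subunits made in most cells were marked at 7 of 7 genes in the H3.3WT list and at 6 of 7 in the other. The shares of all genes were 24.8% and 28.6%. Psmb5, which carries the chymotrypsin-like site that bortezomib blocks, had the highest fold of all members in both lists. The H3.3WT peak spanned 54617704 to 54618384 on chromosome 14, with 21.95 fold and −log10 q of 86.9. The H3.3K27M peak spanned 54617686 to 54618420, with 23.1 fold and −log10 q of 122. These folds exceeded those of 94.9% and 96.1% of marked genes. Psmb2 had 15.6 and 15.5 fold. Psmb6, with the caspase-like site, had 14.2 and 11.8 fold. Psmb3 had 14.5 and 8.49 fold. Psmb1 (6.01 and 5.87 fold) and Psmb7 (5.89 and 5.17 fold), the latter with the trypsin-like site, were lower. The median over marked Psmb genes was 14.2 and 10.2 fold, and over marked Psma genes 6.91 and 5.37 fold.

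Psmb4, a structural β subunit, was marked in H3.3WT only. Its peak spanned 94886627 to 94887186 on chromosome 3, with 6.76 fold and −log10 q of 15.5. The nearest H3.3K27M peak lay 46913 bp from the gene. Of the 200 H3.3WT peaks nearest to it in rank of −log10 q, 93.5% overlapped an H3.3K27M peak, so a peak of this strength was rarely without a partner. Without replicates, a difference in binding and a difference between these libraries cannot be told apart.

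No 20S gene of restricted use had a boundary peak in either list (0 of 5), against 24.8% and 28.6% of all protein-coding genes. The 5 genes are the immunoproteasome genes Psmb8, Psmb9 and Psmb10, which interferon induces, the thymus gene Psmb11 and the testis gene Psma8. This group was formed from textbook knowledge with the results known and is not tested. Its 5 genes are too few to read 0 as lower than the shares of all genes. Psmb8 and Psmb9 lie in the major histocompatibility complex, where the nearest summits were 75747 and 59582 bp away in the first list, and 75723 and 59558 bp away in the second. Psmb10 had its nearest summit 35241 and 35256 bp away. Psmb11 lies next to Psmb5, and its nearest peak in both lists, 7238 and 7227 bp away, was the strong Psmb5 peak. Promoters of Psmb8, Psmb9, Psmb10 and Psmb11 had ratios of observed to expected CpG from 0.165 to 0.5996, against a median of 0.793 and a range of 0.456 to 1.12 over the 37 member promoters with a summit within 1 kb. Psmb8 (0.523) and Psmb9 (0.5996) lay inside that range, and Psmb10 (0.192) and Psmb11 (0.165) below it. The part of CpG content in the result was not tested. Annotated pseudogenes of the family, copies of Psma5, Psmb5, Psmb6 and Psmb7, had 0 boundary peaks and 0 peaks inside them in both lists. They are few, and the share of all pseudogenes with a peak was not counted, so their counts have no background here.

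**Figure D3:**
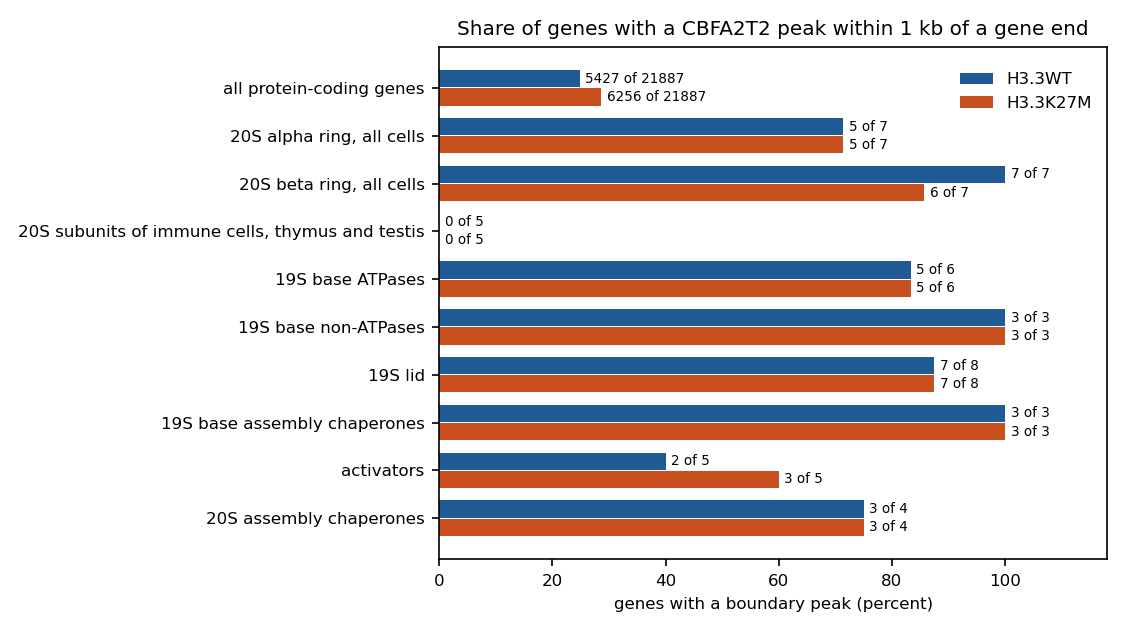
Percent of genes with a boundary peak (x axis) for all protein-coding genes and for classes of proteasome genes (rows) in H3.3WT (blue) and H3.3K27M (orange), with the counts printed at each bar. The 20S genes of restricted use are at 0 of 5 in both lists, and all genes are at 24.8% and 28.6%.

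By gene ends the 19S cap had the largest share of marked genes among the 4 groups, 18 of 20 in each list and 17 in both. The 20S core had 12 and 11 of 19, the activators and inhibitor 2 and 3 of 6, and the assembly chaperones 3 of 4 in each list. The shares of all genes were 24.8% and 28.6%. By gene ends or transcript starts the core had 14 and 13 of 19, and the 5 genes marked in neither list were those of restricted use. In the ATPase ring of the cap 5 of 6 genes were marked in each list. Psmc3 had 12.4 and 18.4 fold, the latter the highest of the cap in the H3.3K27M list. Psmc5 had 14.8 and 11.6 fold and Psmc4 had 7.06 and 12.1 fold. Psmc2 had 8.73 and 4.07 fold. Psmc6 had the lowest fold of all members in H3.3WT, 3.499 with −log10 q of 2.71, and 5.36 fold in the other list. Psmc1 had no boundary peak, and the nearest summits were 36238 and 36186 bp away. Its promoter had an observed to expected CpG ratio of 0.966, inside the range of 0.456 to 1.12 over the 37 member promoters with a summit, and 1 ETS match. Its GC content of 47% lay below the lowest of those promoters, 49.3%.

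Of the other base subunits, Psmd1 had 11.8 and 11.3 fold, the ubiquitin receptor gene Psmd4 had 8.60 and 9.54 fold, and Psmd2 had 8.77 and 4.69 fold. The lid removes ubiquitin chains. Psmd7, partner of the deubiquitinase, had the second highest H3.3WT fold of all members, 21.1 (chromosome 8, 107588109 to 107588740; −log10 q of 78.1), and 15.2 fold in the other list. The deubiquitinase gene Psmd14 itself had 5.998 and 8.15 fold. Psmd3 had 14.7 and 9.61 fold. Psmd11 and Psmd12 were higher in the H3.3K27M list, Psmd11 with 7.37 and 13.5 fold and Psmd12 with 7.74 and 12.6 fold. Psmd13 had 7.37 and 6.12 fold.

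The lid genes Psmd6 and Psmd8 were each marked in a single list, by peaks of low rank. Psmd6 had 3.79 fold and −log10 q of 2.996 in H3.3WT, above only 6.97% of that list's peaks by −log10 q. Of the 191 H3.3WT peaks nearest in rank, 53.4% overlapped an H3.3K27M peak. Psmd8 had 4.33 fold and −log10 q of 4.49 in H3.3K27M, above 18.9% of peaks, and 40% of its 205 neighbours in rank were shared. Peaks of this strength were often missing from the other list throughout the genome.

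All 3 chaperones of base assembly were marked in both lists, against 22.2% of all genes. The X-linked Psmd10, known as the oncoprotein gankyrin, had 13.1 and 14.4 fold. Psmd5 had 4.30 and 6.59 fold, and Psmd9 had 4.90 and 4.96 fold. Of the chaperones of core assembly, Psmg1 (8.20 and 5.74 fold), its partner Psmg2 (8.09 and 8.15 fold) and Psmg3 (4.32 and 4.19 fold) were marked in both. Psmg4, the partner of Psmg3, was marked in neither. Its nearest summit lay 59616 bp away in H3.3K27M and 1360980 bp away in H3.3WT. Whether the region has the same copy number in both lines was not tested, so its missing peaks cannot be read as absence of binding.

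Activators differed among themselves. Psme3, which codes for the nuclear activator PA28γ, had 14.01 and 16.8 fold, with −log10 q of 63.3 and 86.0. Psme1 and Psme2 code for the interferon-induced activator PA28αβ. Psme1 had no boundary peak, and Psme2 had weak ones of 4.58 and 4.14 fold. The Psme2 summits lay 420 and 418 bp from its start. They lay 192 and 194 bp from the nearer gene end of Rnf31, a ubiquitin ligase gene, and so stood nearer to the neighbour. Psme2b had no peak. Psme4, the gene of PA200, was marked in H3.3K27M only, by a peak at 30771656 to 30772090 on chromosome 11 with 5.47 fold and −log10 q of 11.01. Its nearest H3.3WT summit was 73243 bp away. Of 200 H3.3K27M peaks of like rank, 74% overlapped an H3.3WT peak.

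Several peaks lay at the end of a neighbouring protein-coding gene as well, and the data do not assign them to either gene. This held for 11 and for 12 of the 37 marked members (29.7% and 32.4%), against 36.8% and 34.7% of all marked genes. Among these neighbours, Mrpl32 of the mitochondrial ribosome stood 127 and 182 bp from the Psma2 summits. Ss18l1 stood 27 and 163 bp from those of Psma7, nearer than Psma7 itself at 46 and 182 bp. Dnajc2 stood 61 and 21 bp from those of Psmc2, against 72 and 10 bp for Psmc2 itself. Ftsj3 was nearer than Psmc5 to its summits, at 135 and 71 bp against 236 and 172 bp. The mitochondrial deacetylase gene Sirt3 shared the peak of Psmd13, at 47 and 23 bp against 38 and 62 bp, and Cep76 that of Psmg2. The summits at Psmb3 lay 108 and 168 bp from Psmb3 itself. The nearer gene end of the Polycomb gene Pcgf2 lay 892 and 832 bp from them. Others within 1 kb were AY074887 and Hykk at Psma4, and Brwd1 at Psmg1 in H3.3K27M. Psmc3ip (5.23 and 5.51 fold) had Retreg3 near its peaks, and Psme3ip1 (8.39 and 4.54 fold) had Rspry1 and LOC115486880. At Psme3ip1 the summits lay 266 and 257 bp from its gene end, farther than from the ends of both neighbours. They lay 30 and 21 bp from its nearest transcript start.

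At the 35 members marked in both lists the peaks occupied the same positions. All 35 pairs overlapped, as did 4792 of the 4857 pairs at all genes marked in both. The median gap between the summits of a pair was 39 bp, against 41 bp over all such genes, and the widest was 200 bp at Psmc3ip. The overlap covered a median of 85.4% of the longer peak, against 78.03%. The fold was higher in H3.3K27M at 17 members and higher in H3.3WT at 18, so 48.6% were higher in H3.3K27M against 46.6% of all genes marked in both. Over marked members the median fold was 7.74 and 7.37, against 6.91 and 6.29 over all marked genes. The median −log10 q was 16.3 and 15.6, against 12.8 in both lists. Without Psmc3ip and Psme3ip1 the medians were 7.74 and 8.15 fold, with −log10 q of 16.3 and 20.2, so the order of the lists reversed. Folds of the lists rest on libraries of unknown depth and are given side by side only.

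**Figure D4:**
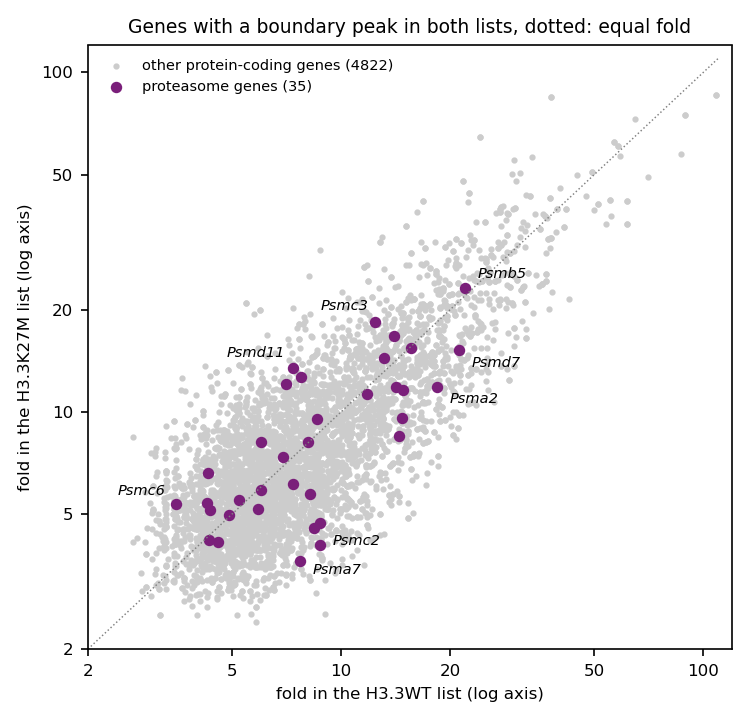
Fold in the H3.3K27M list (y axis) against fold in the H3.3WT list (x axis), both log scales, for genes with a boundary peak in both lists; purple points are the 35 proteasome genes, grey points the 4822 other genes, and the dotted line marks equal folds. Proteasome genes lie on both sides of the line, 17 above it and 18 below, with Psmb5 near it at 21.95 and 23.1.

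Promoters of the members were compared by composition with all others of the same length, 250 bases before to 50 after a start. The 47 member entries had a median observed to expected CpG ratio of 0.734 and a GC content of 57.3%, against 0.567 and 56.3% over 21263 entries of protein-coding genes. Among entries with a summit within 1 kb in either list, the ratio was 0.793 for 37 member entries and 0.837 for 6894 entries of all genes. The ETS letters CCGGAAG occurred in 16 of those 37 (43.2%), against 25.3% of all entries with a summit and 11.6% of all entries. Psma6, at its internal start, and Psmc3ip held 3 matches each. The respiratory factor letters GCGCNTGCG occurred in 7 of 37 (18.9%), against 17.1% and 8.61%. The antioxidant element TGANNNNGC, a loose form of the letters bound by the Nfe2l1 and Nfe2l2 proteins that control proteasome genes, occurred in 22 of 37 (59.5%), against 42.9% and 41.7%. The E-box CANNTG, bound by the E-proteins with which MTG corepressors associate, occurred in 21 of 37 (56.8%), against 59.1% and 69.02%. Its form CACCTG occurred in 7 (18.9%), against 14.8% and 19.7%, and TGACGTCA in none, against 4.37% and 2.23%. GGGCGG occurred in 22 (59.5%), CCAAT in 12 (32.4%), TATAAA in 3 (8.11%) and AAGATGGCG of YY1 in 2 (5.41%), against 68.03%, 39.2%, 5.599% and 4.55% of all entries with a summit. Motifs were read on both strands, CACCTG is one form of CANNTG, and entries of a gene with several starts can overlap.

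Other genes of the pathway were taken from textbook lists. Whether their peaks also lay at the end of a neighbouring gene was not listed. Factors that bind or assemble the proteasome were marked at 10 of 15 genes in each list and 9 in both, against 24.8%, 28.6% and 22.2% of all genes. Zfand2a, induced by arsenite, led with 17.3 and 17.2 fold. Ube3c, a ubiquitin ligase of the proteasome, had 7.01 and 11.9 fold, Akirin2, which serves nuclear import of proteasomes, 10.4 and 10.97 fold, and the redox protein gene Txnl1 12.2 and 9.63 fold. The core maturation factor Pomp had 8.73 and 5.92 fold, the ubiquitin receptor gene Adrm1 8.55 and 7.15 fold, and Sem1, a small subunit of the lid, 5.61 and 5.47 fold. Usp14 was marked in H3.3WT only (5.15 fold) and Zfand2b in H3.3K27M only (4.40 fold). Ecpas, Fbxo7, Ube3a and Zfand5 had no boundary peak.

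Regulation of proteasome genes by Nfe2l1, the factor that raises their transcription when proteasomes are inhibited, gave 7 and 6 marked genes of 12, against shares of 24.8% and 28.6% over all genes. Nfe2l1 itself had 13.5 and 16.7 fold. Hcfc1, a chromatin cofactor, had 9.44 and 14.9 fold, and the ligase gene Syvn1 had 9.49 and 6.57 fold. Mafg, a partner of Nfe2l1 on DNA, had 5.998 and 8.75 fold. Ddi2, the protease that activates Nfe2l1, had 8.13 and 3.28 fold, and Mafk, another partner on DNA, had 8.73 and 4.07 fold. Keap1 was marked in H3.3WT only, at 3.29 fold. Nfe2l2, Nfe2l3, Ngly1, Maff and Ogt had no boundary peak in either list.

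Of the factors that deliver substrates, 11 and 12 of 12 genes were marked, against 24.8% and 28.6% of all protein-coding genes. Ufd1, a cofactor of the p97 unfoldase, had 32.9 and 25.7 fold and the shuttle gene Ubqln4 had 15.1 and 35.3 fold, each above every member in at least 1 list. Lamtor2 had the same 15.1 and 35.3 fold as Ubqln4, so the data do not assign these peaks to Ubqln4 alone. Ubxn1 had 18.8 and 18.4 fold, Faf1 9.85 and 10.96 fold, and Vcp, the p97 gene itself, 5.33 and 4.39 fold. Ubqln2 was marked in H3.3K27M only, at 3.54 fold and −log10 q of 1.69. Rps27a, which fuses ubiquitin to a ribosomal protein, had 37.7 and 42.5 fold, and the E1 gene Uba1, which activates ubiquitin, had 7.32 and 14.9 fold. These lists are small, and no test was made.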

How the data were processed

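CBFA2T2 ChIP-seq peak lists of NE-4C cells were used, 1 of H3.3WT and 1 of H3.3K27M, grouped by sample title. The submitters' processing notes name Trim Galore, MACS2 and mm10. No aligner, duplicate handling, caller setting or version is given in the sources used here. The lists are named as ChIP against input. The fold enrichment (a ratio over background) and the −log10 q are the authors' deposited values and were taken unchanged; the deposited −log10 p was not used. The deposited score equals −log10 q multiplied and cut to a whole number and was not used. The smallest −log10 q was 1.33 and 1.31, so weaker sites are missing from the lists.

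A gene was marked by a summit within 1 kb of either end of its RefSeq span (GRCm38.p6, 1-based), and its peak of highest −log10 q represented it. Background shares cover the 21887 protein-coding genes of chromosomes 1 to 19, X and Y. RefSeq promoter entries gave strand and starts for 43 of 51 members. Sequences were shown for the best ranked marked member of each family: Psmc3, Psmd7 and Psmg2 are without an entry and Psmd10 overlaps another gene, so the next one was taken, and Psmb9 was added after values were seen. Every member (peak intervals only where the results turn on them), its gene neighbours and up to 4 genes of each pathway list were named, with those marked in a single list; others were named after their values were seen. Members and lists were chosen with earlier results of these data known. Paaf1 was not analysed here, and part of the list of ubiquitin genes and E1 enzymes is not reported here. Peak placement was tested on simulated data. Python 3.11.15, pandas 2.3.3 and numpy 2.4.6 were used.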

Additional observations from a re-analysis of the deposited data

How the results depend on the processing

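The number of marked members kept within 1.5 times its value under every alternative tried: −log10 q of at least 5, fold of at least 5, lists cut to equal length by −log10 q, summit windows of 500 bp or 3 kb, peaks touching the 1 kb window with any part, an overlap of at least 50% of both lengths and, chosen after seeing the data, transcript starts and removal of Psmc3ip and Psme3ip1. It ranged from 29 to 38 in H3.3WT and in H3.3K27M, and from 24 to 36 for both lists. The fewest members were marked at a fold of at least 5, where 19.05% and 19.4% of all genes were. The most were marked in the 3 kb window, against 28.2% and 32.3% of all genes. The number marked in a single list was 4, rose to 7 at −log10 q of at least 5 and to 10 at a fold of at least 5, and was 4 or 5 otherwise. Psmb4 and Psme4 were among them under each of the settings for which this number was counted. The shares of all genes marked in both lists or in a single list were not counted under the alternatives. By transcript starts only the 43 members with an entry could be marked. Weak peaks such as those of Psma1, Psma4, Psma7, Psmc6 and Psmd2 fall to either side of a stricter threshold. No paired analysis was possible because each genotype has 1 CBFA2T2 library, and for the same reason no library could be left out. Depth is unknown, so a missing peak is a site below the caller's threshold in that library and not a site shown to be unbound.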
